A study of Mus musculus with 60 samples.

Results

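The lungs described here came from 10 of the 60 mice of the series, the 5 sham mice killed 168 h after a nose-only exposure and the 5 sham mice killed 96 h after it. They were chosen by their sample labels, with no measured value used. All 60 mice were male Balb/c mice that spent 4 h in nose-only restraint. Sham mice breathed the carrier gas without particles, and the SPIO arm breathed superparamagnetic iron oxide nanoparticles. The groups used, of 5 mice each, are sham 168 h, sham 96 h, SPIO 168 h and SPIO 96 h. By the study's methods, mice kept to 168 h were moved after exposure to metabolism cages for the collection of urine and feces, and ate a purified liquid diet, to which they had first been acclimated, in place of pelleted chow. Mice of the 96 h groups breathed in a plethysmograph, which measures ventilation, before exposure and at its start and end. For the rest of the exposure they were in standard restraint tubes. Time, cage, diet and plethysmography therefore cannot be told apart in this comparison.

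The lung holds gas-exchange epithelium and a dense capillary bed, with resident macrophages and with neutrophils, monocytes, lymphocytes and platelets that arrive in blood. Its endothelium and airway cells carry cytochrome P450 enzymes for inhaled and circulating chemicals, of which Cyp1a1 is the classical gene switched on by the aryl hydrocarbon receptor (AhR). Fuel use in many tissues follows the peroxisome proliferator-activated receptors (PPARs), fatty acid sensors whose target genes import, store and burn fat.

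RNA of the right diaphragmatic lobe was hybridized to Affymetrix whole-genome mouse arrays, 1 mouse per array, and values are log2 intensities after robust multi-array averaging (RMA), so a difference of 1 is a doubling. The 10 sham arrays had like medians, between 5.545 and 5.641, and mean within-group correlations between 0.9902 and 0.9938. The mean of 3 Y-linked genes was 6.775 in sham 96 h replicate 2 and 7.55 to 7.71 in the rest of the 10, and the cause was not tested. The labelled tissue was borne out by its markers, since the surfactant protein gene Sftpc lay between 14.88 and 14.97 and the club cell gene Scgb1a1 between 15.01 and 15.11 in all 10. In sham 96 h lungs the hepatocyte gene Alb reached 7.81 in replicate 3, 8.44 in replicate 4 and 11.35 in replicate 5. It lay between 5.54 and 6.03 in the 5 sham 168 h lungs. In SPIO lungs it reached 10.50 in replicate 1 and 8.12 in replicate 5 at 96 h, and was 5.51 to 7.29 at 168 h. The 16 measured hepatocyte markers averaged between 4.54 and 4.65 in sham 168 h lungs and between 4.51 and 8.10 in sham 96 h lungs. In SPIO lungs they averaged between 4.51 and 5.36 at 168 h and between 4.68 and 7.67 at 96 h. None of these markers passed the test in either arm. Without the 2 sham 96 h lungs highest in Alb, an alternative chosen after seeing the data, 5 genes passed the sham comparison described next, namely Acod1, Akap12, Cyp1a1, Ifit1bl2 and the unnamed transcript 4933432I03Rik. The sham 0 h replicate 1 array, which enters only the estimate of spread, is labelled male but carried Xist at 11.94 and Alb at 14.02. Without it and SPIO 24 h replicate 3, the sham comparison called 39 genes.

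Across 18193 genes, 26 differed between sham 168 h and sham 96 h lungs (limma, adjusted p under 0.05), 22 higher at 168 h (0.121% of genes) and 4 lower (0.022%). After each array was centred on its median the split was 17 higher and 6 lower. At an unadjusted p under 0.05 there were 1345 genes. Arrays of both groups did not overlap for 238 genes (1.31%), 16 of them among the 26. Fitted on the 10 sham arrays alone, without the spread of the other groups, no gene passed. Of the 26, Acod1, Cyp1a1 and Ifit1bl2 passed in every fit that left out 1 of the 10 arrays.

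The SPIO arm repeats the pair of times and housings in 10 other mice. There 1 gene was higher at 168 h (0.0055%) and 3 were lower (0.0165%) by the same test, and Cyp1a1 and Acot1 were the genes called in both arms. Of the 26 genes, 22 (84.6%) had the same sign in SPIO lungs, against 52.6% of all genes. Over all genes the SPIO change leaned downward, with 38.2% positive and a median of -0.04. At an unadjusted p under 0.05, 251 genes were higher and 1306 lower in SPIO lungs. No gene passed the test of the difference between the arms (0% called by limma, with 1031 genes at an unadjusted p under 0.05), so a call in only 1 arm is not a difference between arms. The mean change over both arms, a comparison added after the values were seen, was past the threshold for 24 higher (0.132%) and 27 lower genes (0.148%). In that mean 43.8% of all genes were positive, and at an unadjusted p under 0.05, 609 were higher and 1178 lower. The mean uses the sham arrays again, so it is not independent of the sham result. Of the 26 sham genes 14 were among these 51, and 19 of the 51 passed in every fit that left out 1 of the 20 arrays.

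The largest fold among the genes past the threshold was that of Cyp1a1, an oxidase of aromatic hydrocarbons, and its level was lower at 168 h than at 96 h in sham and SPIO lungs alike. In sham 168 h lungs its log2 values were 7.49, 7.26, 5.39, 4.84 and 4.57, against 7.84, 9.62, 8.30, 8.20 and 8.46 in sham 96 h lungs. The 2 groups did not overlap, although replicates 1 and 2 of the 168 h group came near the lowest 96 h value and the other 3 lay far below. The change was -2.58 (SE 0.44, adjusted p = 0.00258), 5.96-fold lower at 168 h. In SPIO 168 h lungs the values were 4.04, 4.12, 3.72, 5.72 and 6.53, against 8.04, 7.86, 9.33, 7.62 and 9.09 in SPIO 96 h lungs. Again no 168 h lung reached a 96 h lung, and the change was -3.56 (SE 0.44, adjusted p = 1.79e-06).

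In sham lungs the Cyp1a1 mean was 5.91 at 168 h, against 8.10 to 8.60 in the 5 sham groups killed earlier. The means of the other 10 groups of the series, in both arms, ran from 7.47 to 8.91. Of 10 measured genes of the AhR list, Cyp1a1 alone passed in either arm. Of all genes, 0.022% fell in sham and 0.0165% in SPIO lungs. The list's median change was -0.01 in sham and -0.10 in SPIO lungs. The list member Aldh3a1 went the other way in sham lungs, by 0.57 (adjusted p = 0.636), and its groups did not overlap. Its values were 8.36 to 9.61 at 168 h and 8.01 to 8.28 at 96 h, and its change in SPIO lungs was 0.20. Ahrr, the repressor of the receptor, was near background, with means of 3.09 at 168 h and 2.95 at 96 h in sham lungs. Cyp1b1, a related oxidase, averaged 7.09 ± 0.47 at 168 h and 6.89 ± 0.17 at 96 h in sham lungs (SD, n = 5 each), and Tiparp, a further AhR target, 10.04 ± 0.10 and 10.08 ± 0.36. Both were named after their values were seen, and neither passed the test.

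The promoter of Cyp1a1, shown because its gene changed most, holds 1 copy of the AhR element GCGTG, in capitals, on the gene's own strand at base 197 of 300. The stretch is the RefSeq promoter window around the gene's start on GRCm38.p6, chr9:57697363-57697662, plus strand. The element, searched on both strands, is in 32.4% of all 32851 promoters, so a match is a description of the sequence only.
Cyp1a1: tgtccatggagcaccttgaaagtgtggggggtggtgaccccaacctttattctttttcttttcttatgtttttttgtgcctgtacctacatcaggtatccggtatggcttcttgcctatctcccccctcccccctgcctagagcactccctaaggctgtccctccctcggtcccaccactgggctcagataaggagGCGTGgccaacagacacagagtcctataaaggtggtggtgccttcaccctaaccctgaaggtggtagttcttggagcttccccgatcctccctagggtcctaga

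**Figure D1:**
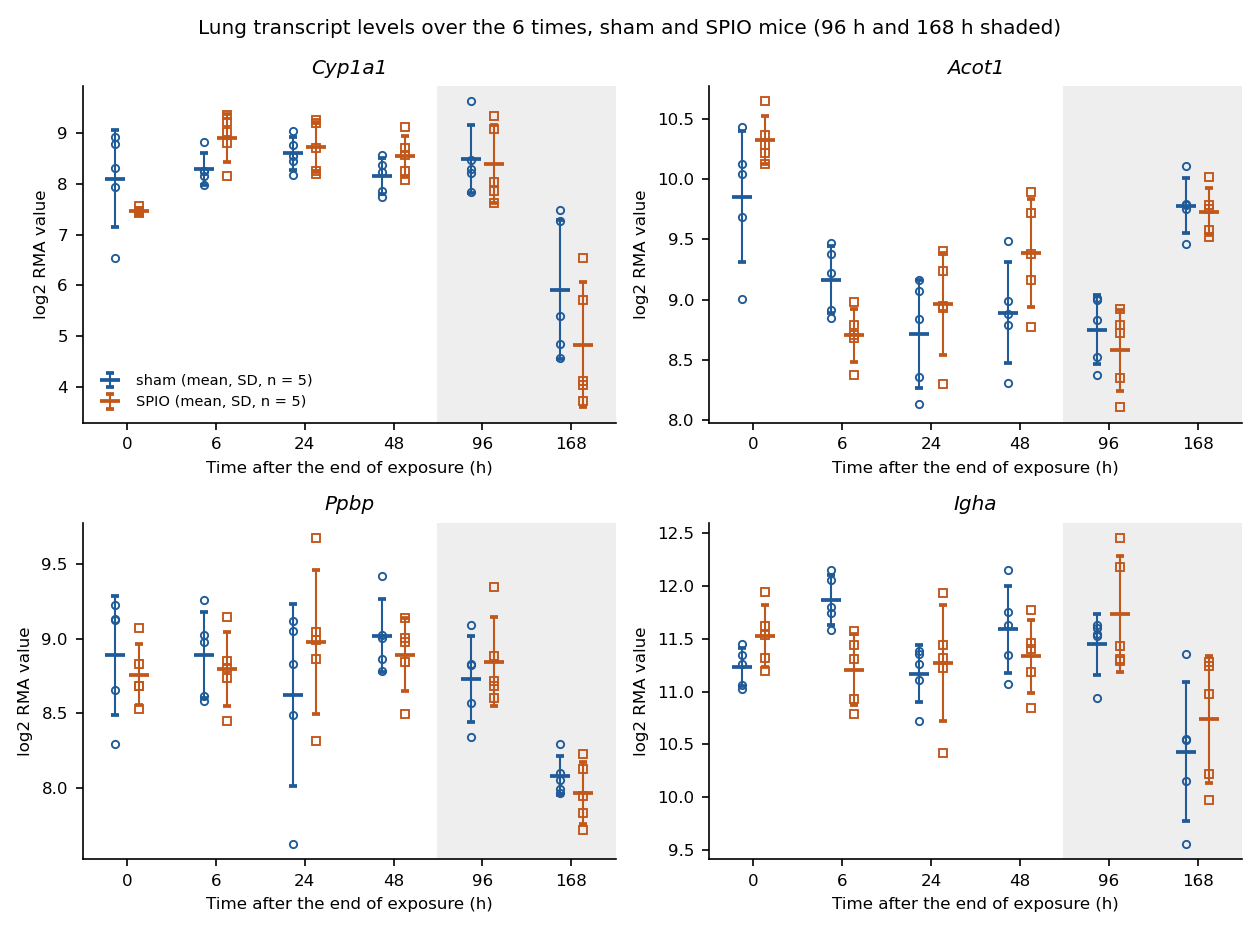
Log2 RMA values of Cyp1a1, Acot1, Ppbp and Igha (vertical axes) against time after the end of exposure in hours (horizontal axes) in sham and SPIO lungs; points are mice and bars are means with SD. Cyp1a1 averaged 5.91 in sham and 4.83 in SPIO lungs at 168 h, below the 7.47 to 8.91 of the other groups, while Acot1 was high both at 0 h and at 168 h.

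PPAR targets and genes of fatty acid oxidation formed 1 list. All 22 measured members of the PPAR list had a positive change in sham lungs, against 52.7% of all genes, with a median of 0.30 beside 0.01 over all genes, and 18 of the 22 were positive in SPIO lungs, with a median of 0.17 beside -0.04. By the test, 2 of the 22 rose in sham lungs, Acot1 and Slc25a20, where 0.121% of all genes rose. At an unadjusted p under 0.05 there were 9 (40.9%, against 7.39% of all genes in either direction). In the mean of both arms 7 of the 22 rose and none fell, where 0.132% of all genes rose and 0.148% fell. In sham lungs Acot1 and Slc25a20 each passed in 5 of the 10 fits that left out 1 array, and neither passed without the 2 sham 96 h arrays highest in Alb (adjusted p = 0.178 and 0.3). In the mean of both arms both passed in all 20 such fits. Of the 7 genes called in that mean, 3 passed without those 2 arrays, namely Acot1, Angptl4 and Slc25a20. The 17 measured adipose tissue markers had medians of 0.20 in sham and 0.23 in SPIO lungs, with 13 of 17 positive in each arm and no call. Of these, 4 were higher and 1 lower at an unadjusted p under 0.05 in sham lungs (29.4%, against 7.39% of all genes). The lists share 1 gene, and the part of adipose markers in the PPAR values was not tested.

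Acot1, a cytosolic thioesterase that frees fatty acids from coenzyme A, had log2 values of 9.75, 9.80, 9.79, 10.11 and 9.46 in sham 168 h lungs, against 8.52, 9.01, 8.83, 8.38 and 9.0 in sham 96 h lungs. In SPIO 168 h lungs they were 9.52, 9.75, 9.78, 9.57 and 10.01, against 8.92, 8.72, 8.11, 8.79 and 8.35 in SPIO 96 h lungs. All 10 lungs at 168 h were above all 10 at 96 h. The change was 1.03 in sham (SE 0.22, adjusted p = 0.0239) and 1.15 in SPIO lungs (SE 0.22, adjusted p = 0.0214). The 168 h sham level was close to that at 0 h, where Acot1 averaged 9.85 ± 0.55 (SD, n = 5), and above the means of 9.17 (6 h), 8.71 (24 h) and 8.89 (48 h) of the sham groups between.

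The Acot1 promoter on GRCm38.p6, chr12:84009252-84009551, plus strand, is shown as that of the other gene called in both arms. It holds 1 CCAAT box, in capitals, a motif found on either strand in 37.4% of promoters. It holds no copy of AGGTCA, the hexamer bound by nuclear receptors, a motif added after the values were seen and present in 16.3% of promoters.
Acot1: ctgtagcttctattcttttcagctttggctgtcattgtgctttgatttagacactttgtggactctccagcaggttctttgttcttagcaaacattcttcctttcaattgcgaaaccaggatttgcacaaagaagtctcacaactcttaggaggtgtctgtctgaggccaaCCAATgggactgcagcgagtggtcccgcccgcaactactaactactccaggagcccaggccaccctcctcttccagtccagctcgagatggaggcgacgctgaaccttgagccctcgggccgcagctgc

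Slc25a20, the carrier that takes acylcarnitines across the inner mitochondrial membrane, had values of 10.02, 10.18, 10.09, 10.25 and 10.15 in sham 168 h lungs, against 9.60, 9.92, 9.79, 9.57 and 9.55 in sham 96 h lungs. The groups did not overlap in either arm, and the change was 0.45 in sham (SE 0.09, adjusted p = 0.0239) and 0.31 in SPIO lungs (adjusted p = 0.332). A second probe set gave 0.48 and 0.32. Angptl4, a secreted inhibitor of lipoprotein lipase, had the largest change of the list in sham lungs, with 11.44, 10.46, 10.28, 10.98 and 9.80 at 168 h, against 8.01, 10.06, 9.27, 7.99 and 9.75 at 96 h. The lowest 168 h lung lay below the highest 96 h lung, and the change of 1.58 (SE 0.40) did not pass in sham lungs (adjusted p = 0.0773), nor did the 1.77 of SPIO lungs (adjusted p = 0.0799). The mean of both arms did, at 1.67 (SE 0.28, adjusted p = 0.000877).

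In that mean the lipid droplet coat gene Plin2 rose by 0.37 (adjusted p = 0.0117), the mitochondrial thioesterase gene Acot2 by 0.48 (adjusted p = 0.0183), Cpt1a, whose enzyme commits fatty acids to oxidation, by 0.38 (adjusted p = 0.0329) and the acyl-CoA dehydrogenase gene Acadl by 0.32 (adjusted p = 0.0489). The peroxisomal thiolase gene Acaa1b, no member of the list, rose by 0.88 (adjusted p = 0.0151). None of these 5 genes passed without the 2 sham 96 h arrays highest in Alb (adjusted p between 0.0696 and 0.129). Of the 20 fits that left out 1 array, Plin2 passed in 19, Acaa1b in 17, Acot2 in 16, Cpt1a in 9 and Acadl in 5. Acot2, Cpt1a, Acadl and Acaa1b were named after their values were seen. Pdk4, whose kinase diverts cells from glucose, was 10.43 in sham 168 h replicate 1 and 7.95 to 8.38 in the other 4 lungs of that group, against 6.79 to 8.85 at 96 h. It did not pass (1.13, adjusted p = 0.464).

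**Figure D2:**
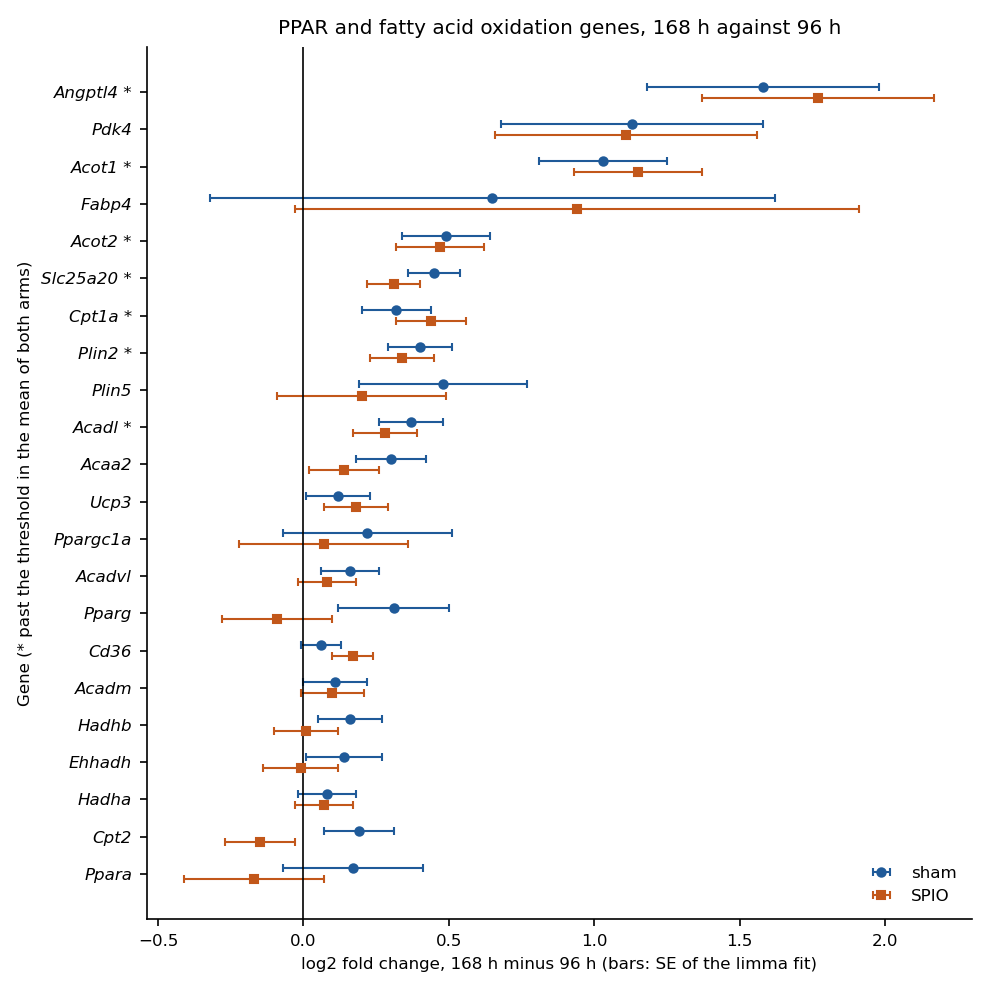
Log2 fold change at 168 h against 96 h (horizontal axis, bars are SE of the limma fit) for the 22 measured genes of the PPAR and fatty acid oxidation list (vertical axis) in sham and SPIO lungs. All 22 sham points are above 0, and an asterisk marks the 7 genes past the threshold in the mean of both arms, from Angptl4 at 1.67 to Acadl at 0.32.

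Acod1, which makes the antimicrobial metabolite itaconate in activated macrophages, had values of 7.26, 6.16, 6.12, 7.33 and 5.08 at 168 h, against 4.39, 4.51, 4.49, 4.19 and 4.70 at 96 h. All 5 lungs at 168 h were above the 96 h lungs, with replicates 1 and 4 highest, and the change was 1.93 (SE 0.32, adjusted p = 0.00244). SPIO lungs averaged 6.00 ± 0.40 at 168 h and 5.02 ± 0.61 at 96 h (SD, n = 5 each), and their change of 0.98 did not pass (adjusted p = 0.389).

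Ifitm6, of the interferon-induced transmembrane family, was 11.05, 9.35, 8.77, 10.82 and 8.71 in sham 168 h lungs, against 7.21, 7.14, 8.08, 7.19 and 8.29 in sham 96 h lungs. The groups did not overlap and the change was 2.16 (SE 0.48, adjusted p = 0.0389), beside 0.35 in SPIO lungs (adjusted p = 0.9). The difference between arms, 1.81, had an adjusted p of 0.873. Fcgr4, a receptor for immunoglobulin G, rose by 0.91 (adjusted p = 0.0371), Ltb4r1, the receptor for the neutrophil attractant leukotriene B4, by 0.73 (adjusted p = 0.0246), and Il1rap, the accessory chain of the interleukin 1 receptor, by 0.55 (adjusted p = 0.0394). The other, dimmer Il1rap probe sets changed by 0.38, 0.25, 0.08 and -0.01, and none passed. Ifit1bl2, of the interferon-induced IFIT family, rose by 0.74 (adjusted p = 0.00258), with 0.38 at a dimmer probe set that did not pass. The neutrophil granule gene Olfm4 rose by 2.19 (adjusted p = 0.0419) and Wfdc17, of activated macrophages, by 1.37 (adjusted p = 0.0334). Neither separated the groups fully, and both were named after their values were seen.

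These lungs were uneven. Over the 22 genes called higher, sham 168 h replicate 4 was the highest of its 5 mice for 12 genes and replicate 1 for 8, and replicate 5 was the lowest for 18. Without replicate 5 the sham comparison called 117 genes, against 47 without replicate 3, 7 without replicate 1, 4 without replicate 2 and 3 without replicate 4. Leaving out sham 96 h lungs gave 71 genes without replicate 3, 31 without replicate 5, 7 without replicate 2, 4 without replicate 1 and 3 without replicate 4.

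No neutrophil marker passed the test. In the fits that left out 1 of the 10 sham arrays, between 0 and 3 passed, with 3 without sham 168 h replicate 5. The 16 measured neutrophil markers had a median change of 0.84 in sham and 0.25 in SPIO lungs. In sham lungs 11 had an unadjusted p under 0.05, all higher (68.8%, against 7.39% of all genes in either direction). In SPIO lungs none did, against 8.56% of all genes. Their mean level by mouse was 9.28, 8.26, 8.06, 8.64 and 7.79 in sham 168 h lungs, against 7.20, 8.21, 7.49, 7.36 and 7.46 in sham 96 h lungs. Replicates 3 and 5 at 168 h lay below replicate 2 at 96 h, and all 5 lungs at 168 h lay above the other 4 at 96 h. Mmp8, the neutrophil collagenase, averaged 10.07 ± 1.49 at 168 h and 7.58 ± 0.92 at 96 h in sham lungs (SD, n = 5 each) and was just outside the threshold (2.49, SE 0.58, adjusted p = 0.051). S100a9, a calcium-binding protein of neutrophils, changed by 1.39 (adjusted p = 0.143) and the decoy receptor gene Il1r2 by 1.89 (adjusted p = 0.164). Over the 10 fits that left out 1 sham array, Mmp8 passed in 3, Il1r2 in 1 and S100a9 in 0.

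The 14 monocyte markers had a median change of 0.48 in sham and -0.03 in SPIO lungs. Ifitm6 was the 1 call, in sham lungs, where 0.121% of all genes rose. In sham lungs 7 of the 14 had an unadjusted p under 0.05, all higher (50%, against 7.39% of all genes in either direction). In SPIO lungs none did, against 8.56% of all genes. The sham groups did not overlap for 5 of the markers, all higher, where 1.31% of all genes did not overlap. The mean level of the 14 markers was 8.88 to 9.36 in sham 168 h lungs and 8.47 to 8.72 in sham 96 h lungs, so the groups did not overlap. SPIO lungs, at 8.74 to 9.06 at 168 h and 8.59 to 9.22 at 96 h, overlapped. The 25 alveolar and interstitial macrophage markers had a median of 0.20 in sham lungs with 23 positive and no call, and 0.02 in SPIO lungs. In whole lung, more cells of a type and more RNA per cell cannot be told apart, and likewise fewer cells and less RNA.

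**Figure D3:**
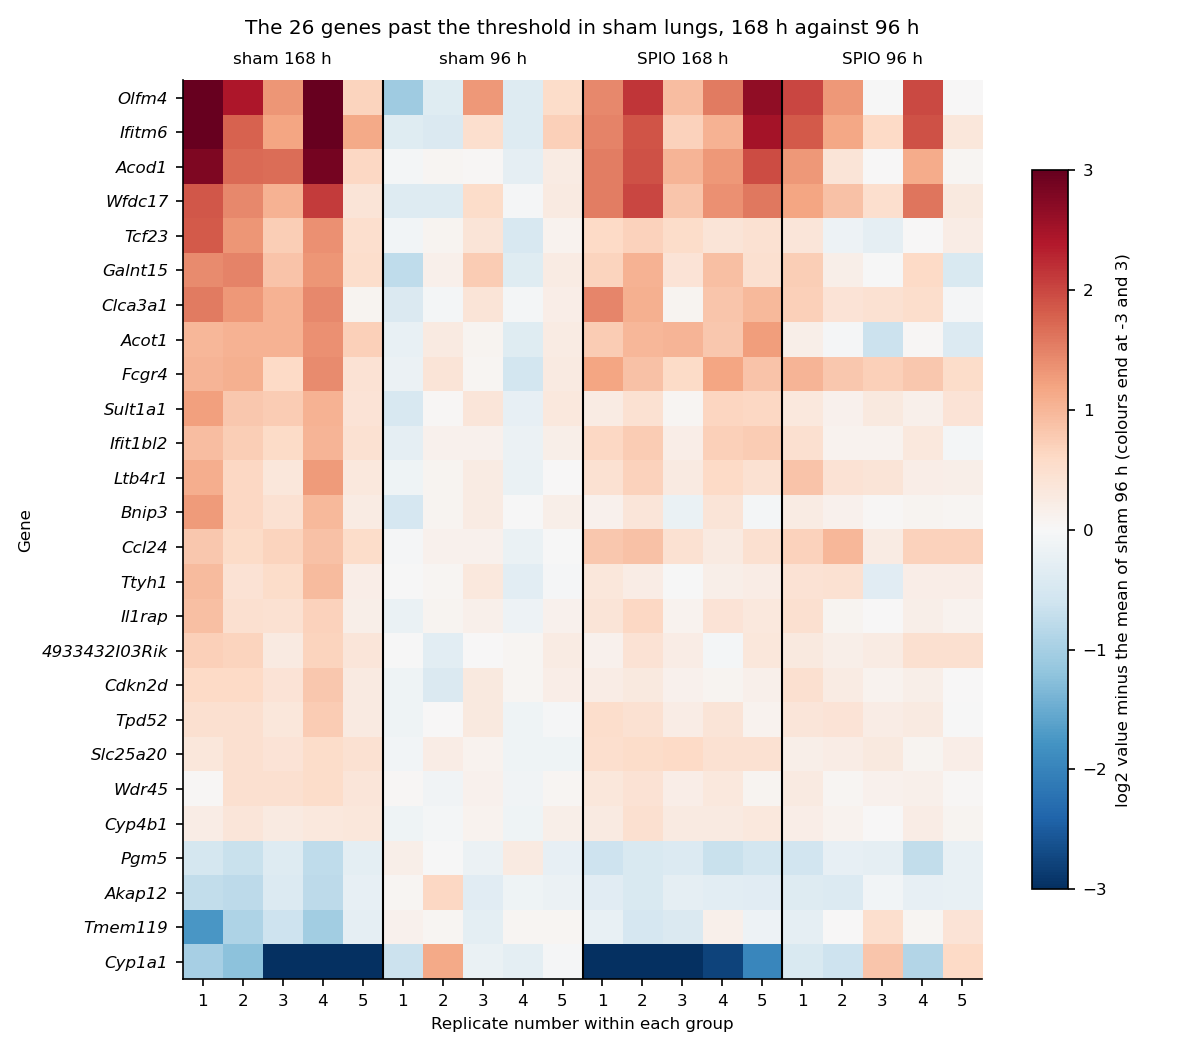
Log2 value minus the mean of the sham 96 h lungs (colour, ending at -3 and 3) for the 26 genes past the threshold in sham lungs (rows) in the 20 lungs of sham 168 h, sham 96 h, SPIO 168 h and SPIO 96 h (columns, by replicate). Olfm4, Ifitm6, Acod1 and Wfdc17, the top 4 rows, are highest in sham 168 h replicates 1 and 4 and lowest in replicate 5 of that group. Cyp1a1, in the bottom row, is lower in all 10 lungs at 168 h than in any lung at 96 h. Its sham 168 h replicates 1 and 2, at 7.49 and 7.26, come near the 96 h lungs.

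Among signals and enzymes, Ccl24, the eosinophil attractant eotaxin-2, was 6.30, 6.06, 6.14, 6.36 and 6.02 in sham 168 h lungs, against 5.45, 5.60, 5.62, 5.29 and 5.46 in sham 96 h lungs. Every 168 h lung was above every 96 h lung, and Ccl24 rose by 0.69 (SE 0.13, adjusted p = 0.0077). SPIO lungs averaged 6.07 ± 0.26 at 168 h and 6.15 ± 0.26 at 96 h (SD, n = 5 each), with a change of -0.08. The difference between arms, 0.77, did not pass the limma test (adjusted p = 0.695), although only 1 gene had a smaller p. That gene was the urea transporter gene Slc14a1, whose probe set averaged 3.38, at the low end of the scale like that of Ahrr, so that no change is described for it.

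The phenol sulfotransferase gene Sult1a1 rose by 0.85 (adjusted p = 0.0239). It was the 1 call among 21 glucocorticoid targets in sham lungs, where 0.121% of all genes rose. Their median was 0.25 in sham and 0.15 in SPIO lungs. At an unadjusted p under 0.05, 7 of the 21 were higher in sham lungs (33.3%, against 7.39% of all genes in either direction). In SPIO lungs 2 were (9.52%, against 8.56%). The list averaged 11.25 in sham 168 h replicate 1, 9.78 to 10.40 in the rest of that group and 9.47 to 10.41 in sham 96 h lungs. Fkbp5, a co-chaperone of the glucocorticoid receptor, changed by 1.32 without passing (adjusted p = 0.226). Cyp4b1, a P450 abundant in lung, had separate groups in both arms and rose by 0.30 (adjusted p = 0.0428). Bnip3, a mitophagy receptor, rose by 0.71 (adjusted p = 0.0263), beside 0.01 in SPIO lungs. It was the 1 call among 23 hypoxia and glycolysis genes in sham lungs, where 0.121% of all genes rose. Of the 23, 21 were positive in sham lungs (91.3%, against 52.7% of all genes), with a median of 0.10. In SPIO lungs 9 were (39.1%, against 38.2%), with a median of -0.04. Clca3a1, of the calcium-activated chloride channel regulator family, rose by 1.08 (adjusted p = 0.0239), although its second, dimmer probe set changed by 0.09. Galnt15, a glycosyltransferase of mucin-type sugars, rose by 1.12 (adjusted p = 0.0246), with 1.21 at its second probe set. The helix-loop-helix factor gene Tcf23 rose by 1.16 (adjusted p = 0.0239), and its groups were separate in both arms.

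Beside Cyp1a1, the genes lower at 168 h in sham lungs were Tmem119, Akap12 and Pgm5. Tmem119, a membrane protein gene known from microglia and bone, was 7.10, 7.92, 8.23, 7.80 and 8.58 at 168 h, against 8.99, 8.90, 8.55, 8.90 and 8.90 at 96 h. Replicate 5 at 168 h lay just above replicate 3 at 96 h, and the change was -0.92 (SE 0.19, adjusted p = 0.0239). Akap12, a scaffold for protein kinase A, changed by -0.60 and Pgm5, a phosphoglucomutase relative found at muscle adhesion sites, by -0.52 (adjusted p = 0.0239 for both). The changes in SPIO lungs were -0.37, -0.07 and -0.13, and none passed.

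No platelet gene passed in sham lungs, Tubb1 and Alox12 fell in SPIO lungs, and several more fell in the mean of both arms. Ppbp, a chemokine of platelet granules, was 8.05, 7.97, 8.30, 8.10 and 8.0 in sham 168 h lungs, against 8.82, 9.09, 8.83, 8.57 and 8.34 in sham 96 h lungs. In SPIO 168 h lungs it was 7.72, 7.94, 8.13, 8.23 and 7.83, against 8.72, 8.89, 8.68, 8.60 and 9.35 in SPIO 96 h lungs. All 10 lungs at 168 h were below all 10 at 96 h, with changes of -0.65 in sham (SE 0.20, adjusted p = 0.211) and -0.88 in SPIO lungs (SE 0.20, adjusted p = 0.0799). In the mean of both arms Ppbp fell by 0.76 (SE 0.14, adjusted p = 0.00418). Its mean was between 8.62 and 9.02 in the other 5 sham groups and 8.08 at 168 h.

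Tubb1, the tubulin of platelets, changed by -0.55 in sham (adjusted p = 0.143) and by -0.80 in SPIO lungs (adjusted p = 0.0286). Alox12, the platelet lipoxygenase, changed by -0.36 (adjusted p = 0.569) and -0.81 (adjusted p = 0.0286). In the mean of both arms these 2 fell, as did the granule chemokine Pf4 (-0.49, adjusted p = 0.00969), the fibrinogen receptor chain Itga2b (-0.43, adjusted p = 0.00418), the von Willebrand factor receptor chain Gp1bb (-0.63, adjusted p = 0.0185) and Clec1b, a podoplanin receptor (-0.59, adjusted p = 0.0265). Tubb1, Alox12, Pf4 and Clec1b were named after their values were seen. Split after the values were seen, the 6 measured platelet members of the erythroid and platelet list had a median change of -0.36 in sham and -0.59 in SPIO lungs. Of these, 4 fell in the mean of both arms, where 0.148% of all genes fell. The 8 erythroid members had medians of -0.07 and -0.08, and none passed. The platelet members averaged 6.90 to 7.17 in sham 168 h lungs and 7.15 to 7.72 in sham 96 h lungs, overlapping only through replicate 5 at 96 h, which was also the lung highest in Alb.

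**Figure D4:**
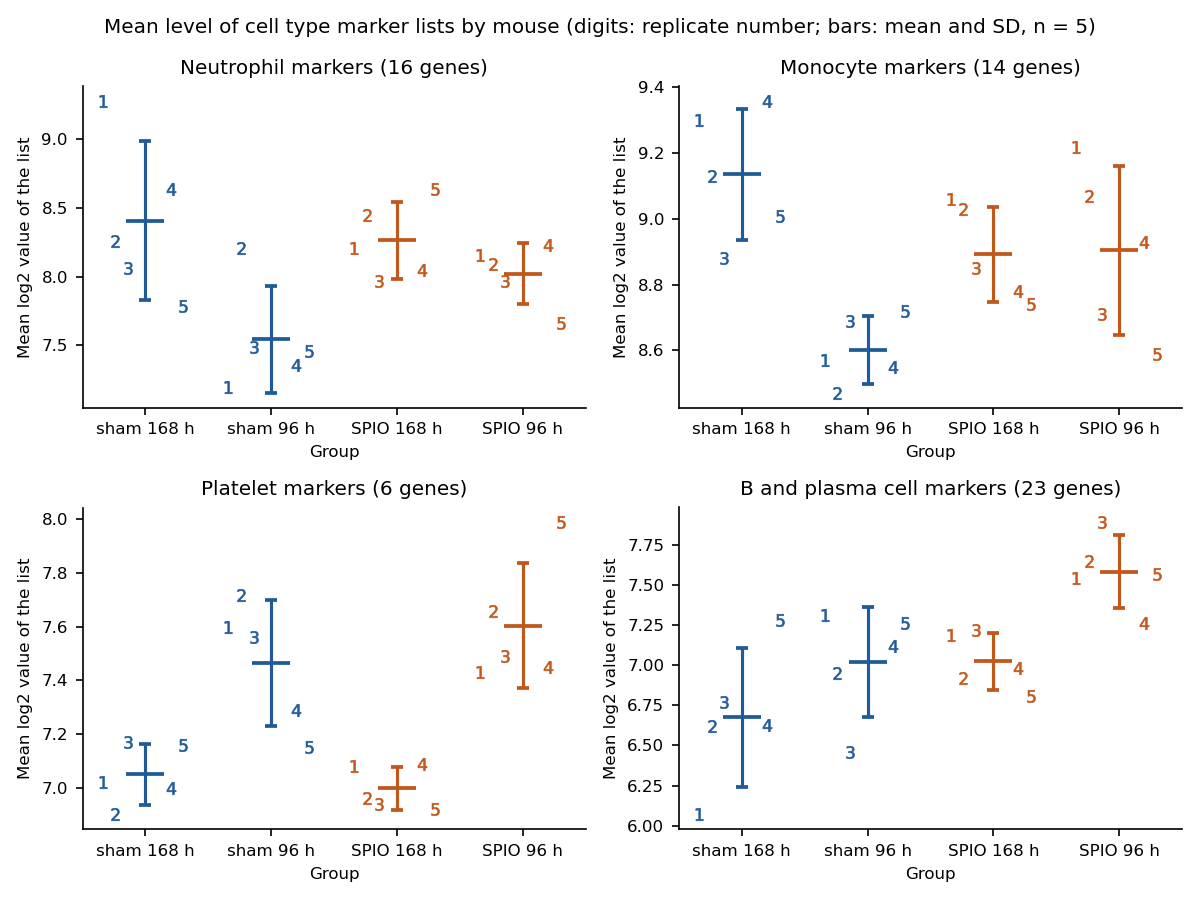
Mean log2 level of 4 marker lists (vertical axes) in each lung of the 4 groups (horizontal axes); digits are replicate numbers and bars are means with SD, n = 5. Platelet markers were at 6.90 to 7.17 in sham 168 h lungs against 7.15 to 7.72 at 96 h, and monocyte markers at 8.88 to 9.36 against 8.47 to 8.72.

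The 23 measured B and plasma cell markers had a median change of -0.40 in sham lungs, with 2 positive (8.7%, against 52.7% of all genes). At an unadjusted p under 0.05, 4 were lower in sham lungs (17.4%, against 7.39% of all genes in either direction). Their mean level overlapped in sham lungs, at 6.07 to 7.28 at 168 h and 6.46 to 7.31 at 96 h. In SPIO lungs the median was -0.61, with 1 positive (4.35%, against 38.2% of all genes). At an unadjusted p under 0.05, 13 were lower there (56.5%, against 8.56%). The SPIO mean level did not overlap, at 6.81 to 7.22 at 168 h and 7.26 to 7.89 at 96 h. None of the 23 passed in either arm. Igha and Mzb1 fell in the mean of both arms, where 0.148% of all genes fell. Igha, the heavy chain of immunoglobulin A, was 11.36, 9.56, 10.54, 10.16 and 10.55 in sham 168 h lungs, against 11.55, 11.52, 10.94, 11.60 and 11.63 in sham 96 h lungs. Only replicate 1 at 168 h overlapped the 96 h lungs, and the change was -1.02 (SE 0.26, adjusted p = 0.0739), beside -1.0 in SPIO lungs (adjusted p = 0.175) and -1.01 in the mean of both (SE 0.18, adjusted p = 0.00223). Its 2 other probe sets gave -1.0 and -0.94 in sham lungs. Mzb1, a chaperone of antibody-secreting cells, changed by -0.45 in sham and -0.74 in SPIO lungs, and by -0.60 in the mean of both (adjusted p = 0.0117). Without the 2 sham 96 h arrays highest in Alb, Igha passed in that mean and Mzb1 did not (adjusted p = 0.0765). Immunoglobulin probe sets can share sequence between chains, so single-gene values are uncertain.

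Of 6 genes of the MCM helicase, which opens DNA for replication, 3 fell in the mean of both arms, where 0.148% of all genes fell. The MCM group was split out after the values were seen. Mcm6 fell by 0.49 (adjusted p = 0.0117), Mcm5 by 0.40 (adjusted p = 0.0265) and Mcm2 by 0.31 (adjusted p = 0.0283), with sham changes of -0.37, -0.25 and -0.28 that did not pass. None of the 3 passed in that mean without the 2 sham 96 h arrays highest in Alb (adjusted p between 0.0696 and 0.0978), and Mcm6 passed in 19, Mcm5 in 13 and Mcm2 in 12 of the 20 fits that left out 1 array. The 32 cell cycle genes as a whole had medians of opposite sign, 0.15 in sham and -0.26 in SPIO lungs, with no call in either arm. Npy, the neuropeptide Y gene, fell by 0.49 in the mean of both arms (adjusted p = 0.00558). It averaged 5.64 in sham 168 h lungs, where the other 5 sham groups lay between 6.08 and 6.18.

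Cholesterol synthesis genes were on the low side. Of 18 measured, 2 were positive in sham lungs (11.1%, against 52.7% of all genes), with a median of -0.12. None was positive in SPIO lungs, where 38.2% of all genes were, and the median was -0.24. No member passed in either arm or in their mean. At an unadjusted p under 0.05, 1 was higher and 1 lower in sham lungs, 10 were lower in SPIO lungs (55.6%, against 8.56% of all genes in either direction) and 11 were lower in the mean of both arms (61.1%, against 9.82%).

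The 20 complement and acute phase genes had a median of 0.22 in sham lungs, with 17 positive (85%, against 52.7% of all genes). At an unadjusted p under 0.05, 5 were higher in sham lungs (25%, against 7.39% of all genes in either direction). In SPIO lungs the median was -0.14, with 3 positive (15%, against 38.2% of all genes). None passed. The 33 chemokine genes had medians of -0.17 in sham and -0.10 in SPIO lungs. Ccl24 was the 1 call in sham lungs, where 0.121% of all genes rose. Of 22 endothelial markers, 6 were lower at an unadjusted p under 0.05 in sham lungs (27.3%, against 7.39% of all genes in either direction). In SPIO lungs 1 was (4.55%, against 8.56%). The endothelial medians were -0.11 and -0.04, with no call. Of 46 lists in all, 39 had no called member in sham lungs, and 28 had a median within 0.10 of 0. The 19 clock and clock output genes had medians of 0.01 in sham and -0.08 in SPIO lungs and no call. At an unadjusted p under 0.05, 1 was higher and 3 were lower in the mean of both arms (21.1%, against 9.82% of all genes). Ciart changed by -0.31 in sham and -0.35 in SPIO lungs and Hlf by -0.36 and -0.30, and neither passed. The clock gene Arntl, named after its values were seen, averaged 7.60 ± 0.63 at 168 h and 7.20 ± 0.52 at 96 h in sham lungs (SD, n = 5 each). The 17 heat shock chaperones had a median of -0.07, the 25 mitochondrial respiration genes 0.01, the 14 surfactant and type 2 cell markers 0.02 and the 24 skeletal muscle markers 0.03, without a call. Among the rest of the 26, the cell cycle inhibitor gene Cdkn2d rose by 0.54, Ttyh1 by 0.61, Tpd52 by 0.46 and the autophagy gene Wdr45 by 0.38 (adjusted p between 0.0359 and 0.0498). The transcript 4933432I03Rik rose by 0.54 (adjusted p = 0.0246) at a dim probe set, with means of 4.05 at 168 h and 3.51 at 96 h. These genes were named after their values were seen, apart from 4933432I03Rik, which has one of the 6 smallest p of the difference between the arms.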

How the data were processed

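Lung RNA of 60 mice, 1 array per mouse and 5 mice in each of 12 groups of treatment and time, was measured on Affymetrix whole-genome mouse arrays. The values deposited by the authors are log2 intensities after RMA, used without further normalization. Groups came from the sample labels, and replicate numbers were used only as names. Array number limits the precision. Of 45101 probe sets, 34945 had 1 gene symbol in the platform annotation. The probe set with the highest mean over the 60 arrays stood for each of 18193 genes. A linear model over the 12 groups was fitted with limma 3.58.1 in R 4.3.3. P-values were adjusted by Benjamini-Hochberg across the 18193 genes, and genes with an adjusted p under 0.05 were called. All tests are two-sided. The contrasts were 168 h minus 96 h in sham lungs and in SPIO lungs, their difference and, added after seeing the data, their mean. The steps were tested on simulated data.

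Genes were named by a rule, namely the 15 higher and 15 lower sham genes with the largest change among those called and not overlapping, filled by p, then the 3 smallest p of each list, those called in both arms and the 6 smallest p of the difference. The members, lists and rule were chosen with earlier results of these data known. Alternatives changed the probe set rule, the filter, the normalization, the arrays in the fit, the moderation, the weights, the replicate block, the test and the fold minimum. Promoters are those of RefSeq on GRCm38.p6. Figures used Python 3.11.15 and matplotlib 3.10.9.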

Additional observations from a re-analysis of the deposited data

Results flagged for a closer look

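In 9 of 216 groups of 5 lungs, 1 lung stood apart from the other 4 by Dixon's test at 95%, where chance gives about 1 in 20. In sham 168 h lungs, Pdk4 was highest in replicate 1 at 10.43, against 8.38 in the next lung. In sham 96 h lungs, Pdk4 was highest in replicate 2 at 8.85, Igha lowest in replicate 3 at 10.94, Tmem119 lowest in replicate 3 at 8.55 and Plin2 lowest in replicate 4 at 11.48. In SPIO 168 h lungs, Cyp4b1 was highest in replicate 2 at 13.47 and Ifit1bl2 lowest in replicate 3 at 6.03. In SPIO 96 h lungs, Npy was highest in replicate 5 at 6.74 and Cpt1a lowest in replicate 3 at 9.90.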

How the results depend on the processing

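The count of 26 sham genes became 47 with only genes at log2 6 or more in at least 5 arrays, 0 with only the 10 arrays compared, 7 with only the 20 arrays of 96 h and 168 h, 143 with array weights, 118 with the methods' test, 9 at 2-fold or more and 5 without the 2 sham 96 h arrays highest in Alb. Leaving out 1 array gave 3 to 117. The 4 SPIO genes became 2 with all probe sets, 7 with the filter, 2 after quantile normalization, 10 with array weights, 67 with the methods' test and 2 at 2-fold or more, and 1 to 19 without 1 array. The test of the difference between arms gave 0 genes in every setting run except 1 gene without SPIO 96 h replicate 4, a range of 0 to 1. The 51 genes of the mean of both arms became 100 with the filter, 123 after quantile normalization and 78 with median-centred arrays. Without the 2 sham 96 h arrays highest in Alb they became 18, with SPIO 96 h replicate 1 (Alb at 10.50) kept. The count was 158 with array weights, 17 at 1.5-fold, 5 at 2-fold or more, and 24 to 137 without 1 array. The cause of these shifts was not tested.

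With the replicate number as a block, 0 sham genes, 4 SPIO genes (1 of them among the 4 reported), 0 of the difference and 10 of the mean of both arms passed. Correlations across the 2 times were taken on each lung's deviations from its group means. Same-numbered sham lungs correlated between -0.446 and -0.0403, and same-numbered SPIO lungs between 0.097 and 0.396, all 5 positive and 4 over 0.1. The highest correlation with another number was 0.291 to 0.554 for sham and 0.173 to 0.406 for SPIO lungs. Only SPIO replicate 3 correlated most with its own number. The labels do not say that a number marks shared mice, batches or days, so the numbers were not taken as pairs in either arm. Of the named genes' values under the alternatives, 924 sham values kept their direction and side of the threshold, 234 lost the call, 24 gained it and 2 moved, and no called value changed sign. With 5 arrays a group, and many called genes close to the threshold, the count of calls is imprecise.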
